A study of Mus musculus with 2 samples.

Results

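Neutrophils are short-lived granulocytes that circulate in blood and enter inflamed tissue and tumours. They carry the calcium-binding proteins S100a8 and S100a9, are kept alive and mobilised through the G-CSF receptor, and are drawn into tissue by ligands of the chemokine receptor Cxcr2. In tumours they are known as sources of the neutrophil attractants Cxcl2 and Cxcl3, of interleukin 1 beta and of other inflammatory mediators. The cells described here were picked out of 2 droplet libraries as those with at least 1 unique molecular identifier (UMI, 1 counted transcript) of S100a8, at least 1 of S100a9 and at least 1 of Csf3r, Cxcr2 or G0s2, and with no UMI of the T cell genes Cd3e and Cd3d or of the macrophage gene C1qa. The rule found 79 cells of the 17390 deposited.

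The libraries came from NILER, a syngeneic mouse melanoma model with mutated Nras that was made by exposing the NIL line to ultraviolet light, and both are labelled as T cells of day 5. The first group is untreated and the second received trametinib, a MEK inhibitor, together with BGB-283, a RAF family inhibitor; no other treatment or allele is named, and mouse age, the number of animals and any sort are not stated. Each group is 1 library, so a difference between them has no replicate check, no test was made, and intervals cover counting error only, which leaves out the variation between cells. Cells of 1 library are not replicates of a treatment.

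The untreated library held 14 neutrophils among 9312 cells, or 0.150% (95% Clopper-Pearson interval 0.0822 to 0.252%). The treated library held 65 among 8078 cells, or 0.805% (0.622 to 1.02%). The intervals did not overlap, but how cells were selected into libraries labelled as T cells can set such shares. Cells with a Cd3e UMI numbered 7812 and 6728. Other myeloid cells, taken as those with Lyz2 and C1qa UMIs and no Cd3e UMI, numbered 214 and 92. The libraries shared 35 cell barcodes, and the barcode of 1 treated neutrophil was also present in the untreated library.

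Neutrophils were shallow. Untreated members held 1781 to 10062 UMIs with a median of 2468, and treated members 818 to 9505 with a median of 1750. They expressed a median of 809 and 762 genes, not far above the lowest gene numbers of any deposited cell, 503 and 501, so neutrophils with fewer genes may not be in the table. Other myeloid cells had medians of 8561 and 8570 UMIs. Summed over the members, 42422 untreated and 125740 treated UMIs were available, and the deepest cell supplied 23.7% and 7.56% of them.

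**Figure D1:**
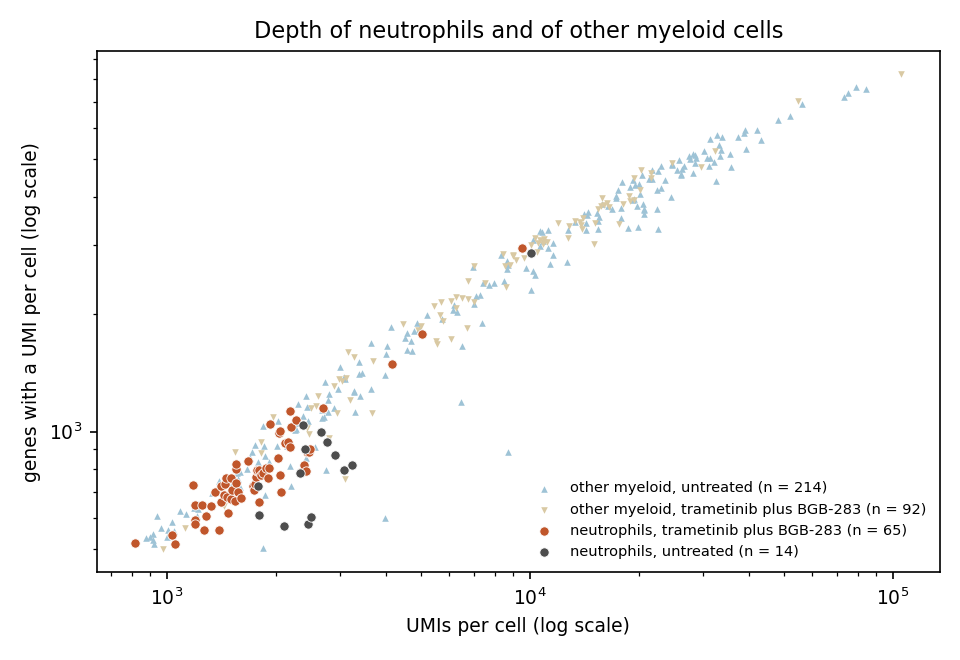
Genes with a UMI against UMIs per cell, both on log scales, for the 79 neutrophils (circles) and the other myeloid cells (triangles) of each library. Most neutrophils sit at the shallow end, around medians of 2468 and 1750 UMIs, while 1 untreated and 3 treated members lie above 4000 UMIs.

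Cxcl2 and Cxcl3, 2 neutrophil attractants among the genes furthest below their untreated level, lie on mouse chromosome 5, and the bases before their starts are shown because the data below turn on these genes. Both entries were found in the RefSeq promoter table (GRCm38.p6, plus strand), at chr5:90903649-90903898 for Cxcl2 and chr5:90785851-90786100 for Cxcl3, and the 250 bases before each start are given 5′ to 3′ with a kappaB motif in capitals.
Cxcl2: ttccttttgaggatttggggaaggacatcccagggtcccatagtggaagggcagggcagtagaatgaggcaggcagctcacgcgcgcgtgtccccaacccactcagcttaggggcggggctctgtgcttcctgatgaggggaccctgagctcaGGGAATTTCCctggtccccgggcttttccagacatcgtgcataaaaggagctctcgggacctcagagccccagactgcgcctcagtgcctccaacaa
Cxcl3: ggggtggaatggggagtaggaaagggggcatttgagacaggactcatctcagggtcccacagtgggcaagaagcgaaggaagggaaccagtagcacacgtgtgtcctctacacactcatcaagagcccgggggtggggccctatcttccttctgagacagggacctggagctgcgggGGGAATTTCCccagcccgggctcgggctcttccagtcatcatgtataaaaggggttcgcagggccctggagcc
The motif searched was GGGAATTTCC on either strand. It lay 97 to 88 bases before the start of Cxcl2 and 73 to 64 bases before that of Cxcl3. This exact string was present in the same window of 28 of 32851 promoters (0.0852%). Other forms of the kappaB motif were not searched, so the share is not that of kappaB motifs in general. A match describes the letters and is not evidence of a bound site.

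The genes of the rule were carried at very different depths. S100a8 had 10 to 307 UMIs per untreated member (median 96) and 2 to 264 per treated member (median 50). S100a9 had 9 to 697 UMIs (median 178.5) and 1 to 266 (median 60). No untreated member but 7 treated members had under 10 S100a8 UMIs, and 10 treated members had under 5 UMIs of S100a8 or S100a9. All 10 of those cells held Cxcl2 and Il1b UMIs. Of the 3 further genes, 2 untreated members carried 1, 8 carried 2 and 4 carried all 3, against 15, 35 and 15 treated members. Just outside the rule, 2 untreated and 4 treated cells had both S100 genes but none of the 3 others, with S100a8 medians of 3.5 and 10 UMIs, and 6 and 12 cells were left out for a Cd3e, Cd3d or C1qa UMI. Among T cells S100a8 stood at 2.34 and 21.9 CPM (UMIs scaled to a common total of 1000000), against 38588 and 35208 CPM in the neutrophils.

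The label was checked with neutrophil genes that the rule did not use. A list of 24 such genes (Retnlg, Il1r2, Slpi, Hdc, Mmp9 and others) summed to 26071 CPM in untreated and 26054 CPM in treated neutrophils, with 22 and 24 genes present. In other myeloid cells the list summed to 395 and 608 CPM. It was at 0 in 1 treated member. The surface marker Ly6g had only 3 UMIs in each library.

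Markers of other cell types were present in part of the members. T cell markers were found in 7 of 14 and 20 of 65 members and summed to 165 and 310 CPM in neutrophils, against 6295 and 6761 CPM in T cells. Macrophage markers were found in 9 and 26 members and summed to 660 and 517 CPM, against 14672 and 38390 CPM in other myeloid cells, with Mrc1, Ms4a7 and Mertk at 0 in both libraries. Monocyte markers were found in 12 and 44 members and summed to 2027 and 1543 CPM, against 1076 and 1344 CPM in other myeloid cells. Dendritic cell markers summed to 1132 and 2012 CPM, and 228 of their 253 treated UMIs came from 1 cell. NK cell markers summed to 23.6 and 525 CPM, with 38 of their 66 treated UMIs in 1 cell. The 4 members above 4000 UMIs included an untreated cell of 10062 UMIs with 43 Lyz2 and 30 Cd74 UMIs, a treated cell of 4161 UMIs with 96 Cd74 and 46 H2-Aa UMIs, and a treated cell of 5033 UMIs with 118 Ccl5 and 30 Gzma UMIs. These cells meet the rule and were kept, and only some of the values that depend on them are also given without them.

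Against other myeloid cells of the same library, 372 of 4589 genes with enough UMIs were at least 2-fold higher in neutrophils in both libraries (8.11%) and 534 were at least 2-fold lower in both (11.6%). These values describe the chosen cells, since expression chose them. Lcn2, which codes for an iron-sequestering granule protein, stood at 754 CPM in untreated and 1090 CPM in treated neutrophils and at 0.675 and 0.977 CPM in other myeloid cells. Hdc, the histamine-forming enzyme, stood at 1556 and 2521 CPM against 0.675 and 4.89 CPM. Slpi, an inhibitor of neutrophil elastase, was 215-fold higher untreated and 1007-fold higher treated. The levels of Lcn2 and Hdc in other myeloid cells rest on few UMIs, 2 and 5 for Hdc. The treated fold of Slpi also rests on few UMIs there, so its 2 folds should not be compared closely. The decoy interleukin 1 receptor Il1r2 was 84.6-fold and 40.9-fold higher, the amplifying receptor Trem1 45.0-fold and 58.8-fold, and Acod1, which makes itaconate, 115-fold and 102-fold. Slc7a11, the cystine transporter, was 62.7-fold and 54.8-fold higher. The protease inhibitor gene Stfa2l1 had no UMI in other myeloid cells, so that with a floor of 3 UMIs over the group it was at least 1606-fold and 195-fold higher.

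In the other direction the lipid carrier Apoe was 42.4-fold lower in untreated and 133-fold lower in treated neutrophils. The complement genes C1qb and C1qc were also among the 10 lowest, as was C1qa, which the rule holds at 0. The MHC class II gene H2-Eb1 was 35.6-fold lower untreated and 13.1-fold lower treated. Lyz2 stood at 1226 and 867 CPM in neutrophils and at 5090 and 5949 CPM in other myeloid cells. The other myeloid cells were chosen for a Lyz2 UMI and the neutrophils were not, which favours this direction. Of the untreated neutrophil UMIs of Lyz2, 82.7% came from 1 cell.

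**Figure D2:**
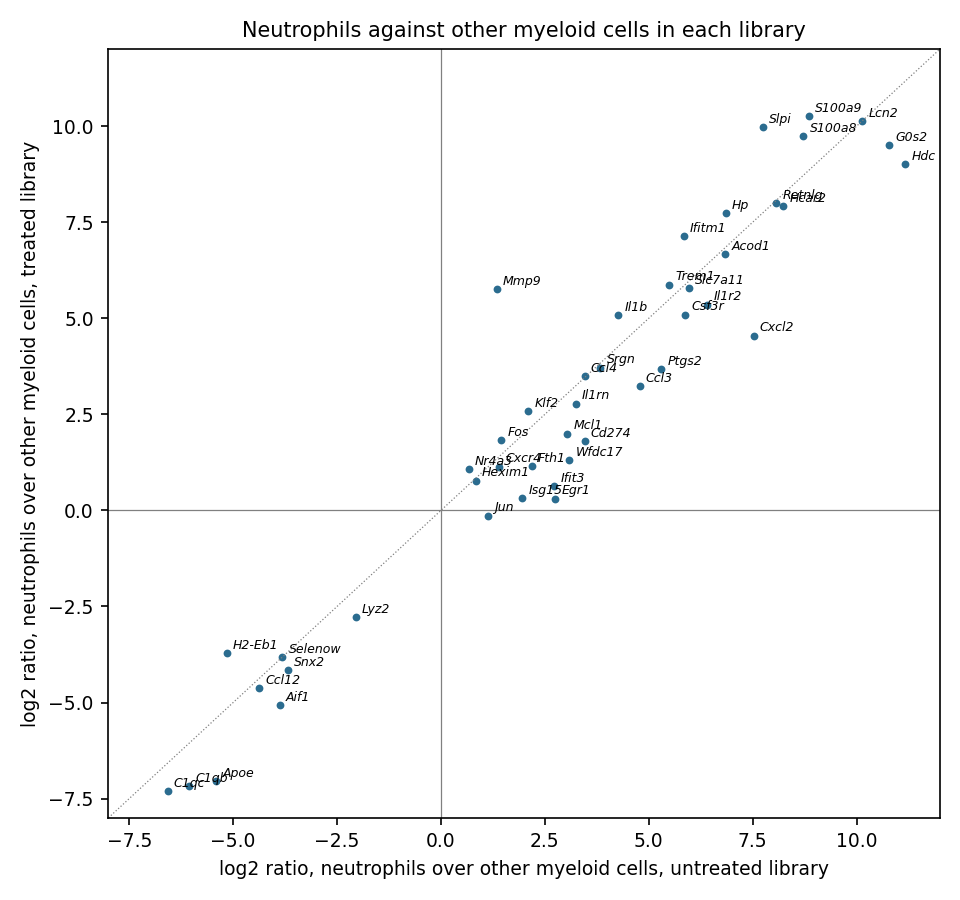
Log2 ratio of neutrophils over other myeloid cells in the untreated library (x axis) and the treated library (y axis) for named genes with UMIs in both kinds of cell in both libraries. The dotted line marks equal ratios. Lcn2 lies at 10.13 and 10.12, Cxcl2 at 7.52 and 4.55, and the macrophage genes lie at the lower left.

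Between the libraries, 691 genes had at least 30 UMIs in the neutrophils of 1 library. Of these, 193 were at least 2-fold higher in treated neutrophils (27.9%) and 58 at least 2-fold lower (8.39%). The minimum of 30 UMIs equals 707 CPM untreated but 239 CPM treated, so genes high in treated cells passed it more easily. The median log2 ratio was 0.43. The mitochondrial share of UMIs also differed, with medians over cells of 1.67% in untreated and 0.437% in treated neutrophils, while other myeloid cells had 3.88% and 3.78%, and its part in the differences below was not tested. Scaled to a median ratio of 1, the split was 114 higher and 101 lower, and with a minimum set on the mean CPM of both libraries it was 56 higher and 55 lower, so the excess of higher genes depends on these choices. The interval of the ratio lay past 1 for 157 of the 193 and for 58 of the 58.

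Chemokine ligands were mostly lower in treated neutrophils. Of 12 on the list, 6 had enough UMIs, 5 were at least 2-fold lower and 1, Ccl5, was higher. Over all genes tested 8.39% were lower and 27.9% higher. The 6 chemokine genes had a median log2 ratio of -1.78, against 0.43 over all genes tested.

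Cxcl2, a Cxcr2 ligand that attracts neutrophils, had 1 to 260 UMIs per untreated member with a median of 74.5, and 0 to 61 per treated member with a median of 8. As a level per cell, the medians were 28256 and 4766 CPM. All 14 untreated and 53 of 65 treated members held it, and the ranges overlapped: the lowest untreated cell, which is also the deepest, stood at 99.4 CPM, the next lowest untreated cell at 15970 CPM and the highest treated cell at 37983 CPM. The summed level was 29560 CPM (27946 to 31243) untreated and 6664.5 CPM (6221 to 7132) treated, 4.43-fold lower (4.06 to 4.85). The transcript made up 2.96% of all untreated and 0.666% of all treated neutrophil UMIs.

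Cxcl3, another Cxcr2 ligand, had up to 53 UMIs per untreated member and never more than 1 per treated member. It was seen in 9 of 14 untreated and 4 of 65 treated cells, all of which also held Cxcl2. The summed level was 3819 CPM (3253 to 4454) against 31.8 CPM (8.67 to 81.4), a log2 ratio of -6.91 and 120.0-fold lower (46.0 to 446). Thinned to 1000 UMIs per cell, Cxcl3 was present in 57.1% of untreated members (28.9 to 82.3%) and 4.69% of treated members (0.977 to 13.1%), while 0.205% and 0.0448% of thinned T cells held a UMI.

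Ccl3 and Ccl4 attract monocytes and lymphocytes. Ccl3 had 0 to 112 UMIs per untreated member (median 2) and 0 to 20 per treated member (median 0). It was 6.0-fold lower in sum (4.79 to 7.56), from 5587 to 930 CPM, with 47.3% of the untreated UMIs in 1 cell. Ccl4 was present in 7 of 14 and 32 of 65 members, at 4502 and 2243 CPM, a log2 ratio of -1.01. About as large a share of cells held it in each library, 50.0% and 49.2%, and the highest cells had 63 and 39 UMIs. When members with a UMI of further T cell or macrophage genes were also left out, a stricter set that keeps 8 untreated and 50 treated cells, the log2 ratio of Ccl3 was -1.07 and that of Ccl4 turned to 1.83. Both genes were also lower in the other treated cells. Other myeloid cells stood at 203 and 98.7 CPM for Ccl3 and at 410 and 197 CPM for Ccl4. T cells stood at 125 and 45.6 CPM for Ccl3 and at 260 and 138 CPM for Ccl4. In neutrophils, Ccl6 stood at 2522 and 954 CPM, a log2 ratio of -1.40. The excess of Ccl5 (1 and 124 UMIs) was carried by 1 treated cell with 95.2% of its UMIs, and without members above 4000 UMIs its log2 ratio was 0.86 and not 5.39.

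**Figure D3:**
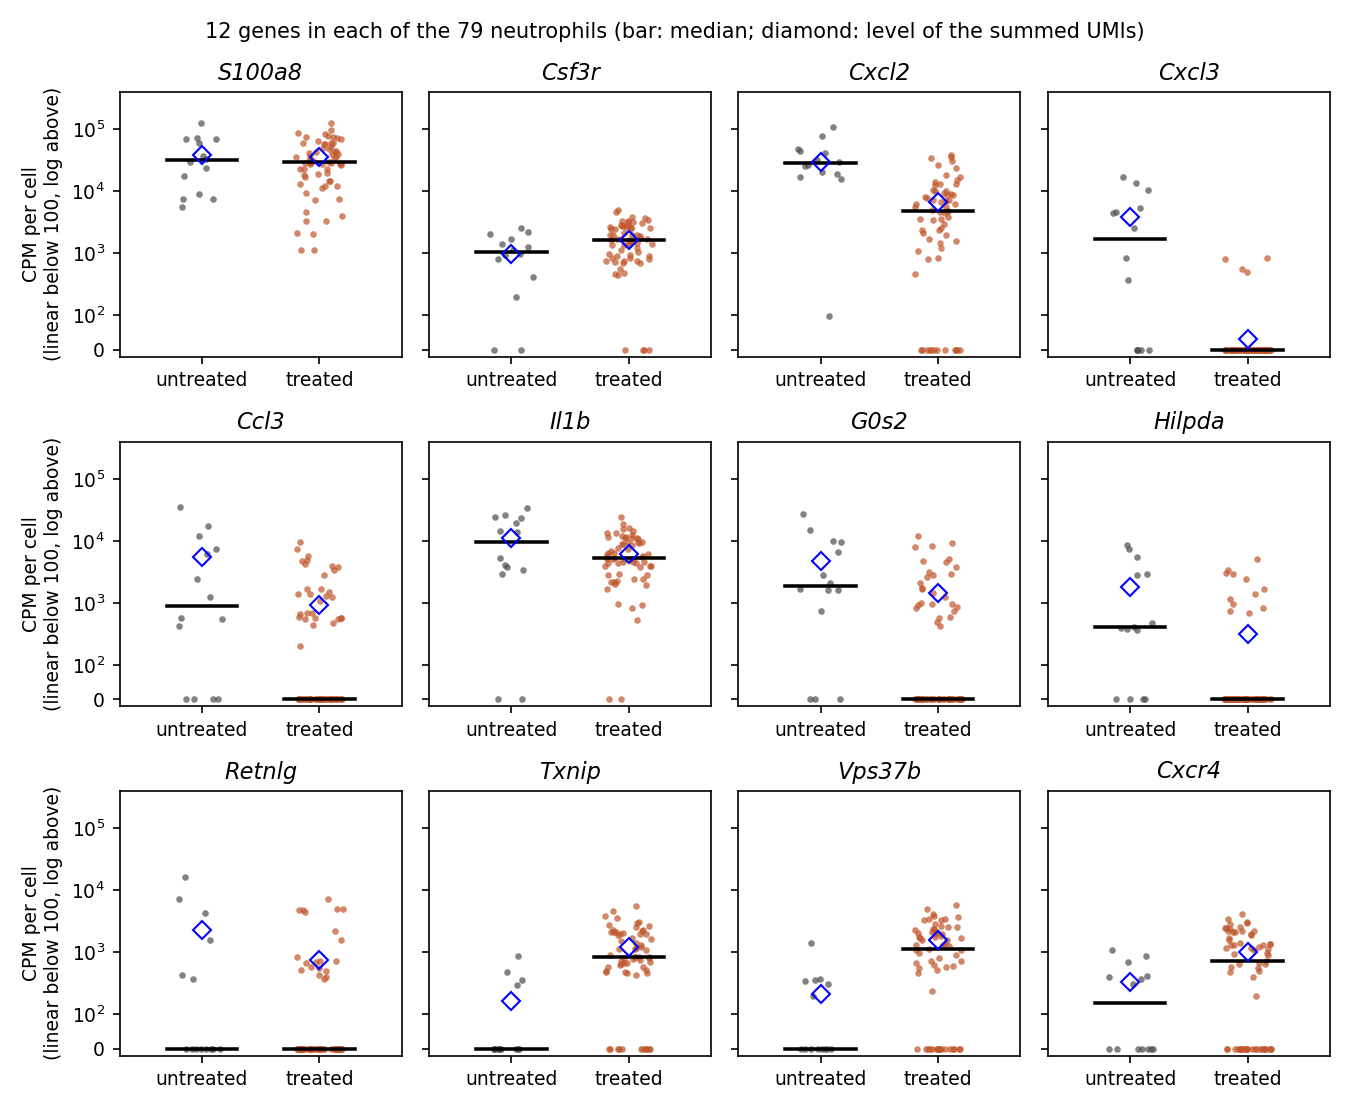
Level of 12 genes in each neutrophil as CPM of that cell (linear below 100, log scale above), with untreated members in grey and treated members in orange; bars are medians over cells and diamonds the level of the summed UMIs. Cxcl2 has medians of 28256 and 4766 CPM, Cxcl3 is at 0 in 61 of 65 treated cells, and Txnip is present in 4 of 14 untreated and 54 of 65 treated cells.

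Inflammatory cytokines and lipid mediators differed less. Il1b, the gene of interleukin 1 beta, had 0 to 93 UMIs (median 31.5) in untreated and 0 to 38 (median 10) in treated members. It was present in 12 of 14 and 63 of 65 cells, at 11268 CPM (10280 to 12325) and 6163.5 CPM (5737 to 6613), 1.83-fold lower (1.63 to 2.05). This is under the 2-fold limit. Ptgs2, which starts prostaglandin synthesis, stood at 1909 and 986 CPM, a log2 ratio of -0.95. Il1rn, the antagonist of the same receptor, had a log2 ratio of -1.23 and the cytokine Osm one of -1.07, or -0.35 in the stricter set. Of the 6 cytokine genes with enough UMIs, 2 were at least 2-fold lower and 1, the receptor subunit Il1rap, was higher. Il1rap had 6 and 41 UMIs, and its ratio interval of 0.973 to 6.64 included 1. Over all tested genes 8.39% were lower and 27.9% higher.

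Of 21 genes of the glycolysis and hypoxia list 12 were tested, 8 were at least 2-fold lower, 4 were within 2-fold and none was at least 2-fold higher, where 8.39% of all tested genes were lower. The median log2 ratio was -1.43, and the glucose transporter Slc2a3 lay on the other side at 0.96. Hilpda, a hypoxia-induced lipid droplet protein, was present in 10 of 14 untreated and 12 of 65 treated members at 1815 CPM (1432 to 2269) and 310 CPM (221 to 424). It was 5.85-fold lower (3.93 to 8.84) in neutrophils, while T cells of the same libraries stood at 198 and 323 CPM. Among the enzymes, Tpi1 had a log2 ratio of -2.36, Pgam1 of -1.68, Gapdh of -1.58, Ldha of -1.57, Pgk1 of -1.47 and Eno1 of -1.40. Without the members above 4000 UMIs the median of the list was -0.83.

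All 5 tested genes of the type I interferon list were at least 2-fold lower in treated neutrophils, against 8.39% of all tested genes, and the other 14 of its 19 genes had too few UMIs. The median log2 ratio was -2.25. Ifitm3, which restricts virus entry, was present in 12 of 14 untreated and 33 of 65 treated members at 2805 CPM (2324 to 3357) and 588.5 CPM (462 to 739). Isg15, the ubiquitin-like interferon product, stood at 1084 and 286 CPM and was found in 9 and 21 members. Slfn4 was found in 10 of 14 and 9 of 65 members, with a log2 ratio of -3.33, Slfn1 had -2.31 and Oasl2 -1.07, which was -0.23 in the stricter set and so within 2-fold there. Outside the list, Ifi27l2a stood at 2734 and 143 CPM (19.1-fold lower, 11.6 to 33.4) and Rtp4 at 731 and 31.8 CPM. In T cells, which surrounded these cells in the same libraries, Ifi27l2a stood at 1032 and 572 CPM and Ifitm3 at 367 and 71.3 CPM; a part of free RNA from other cells in the difference was not tested.

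**Figure D4:**
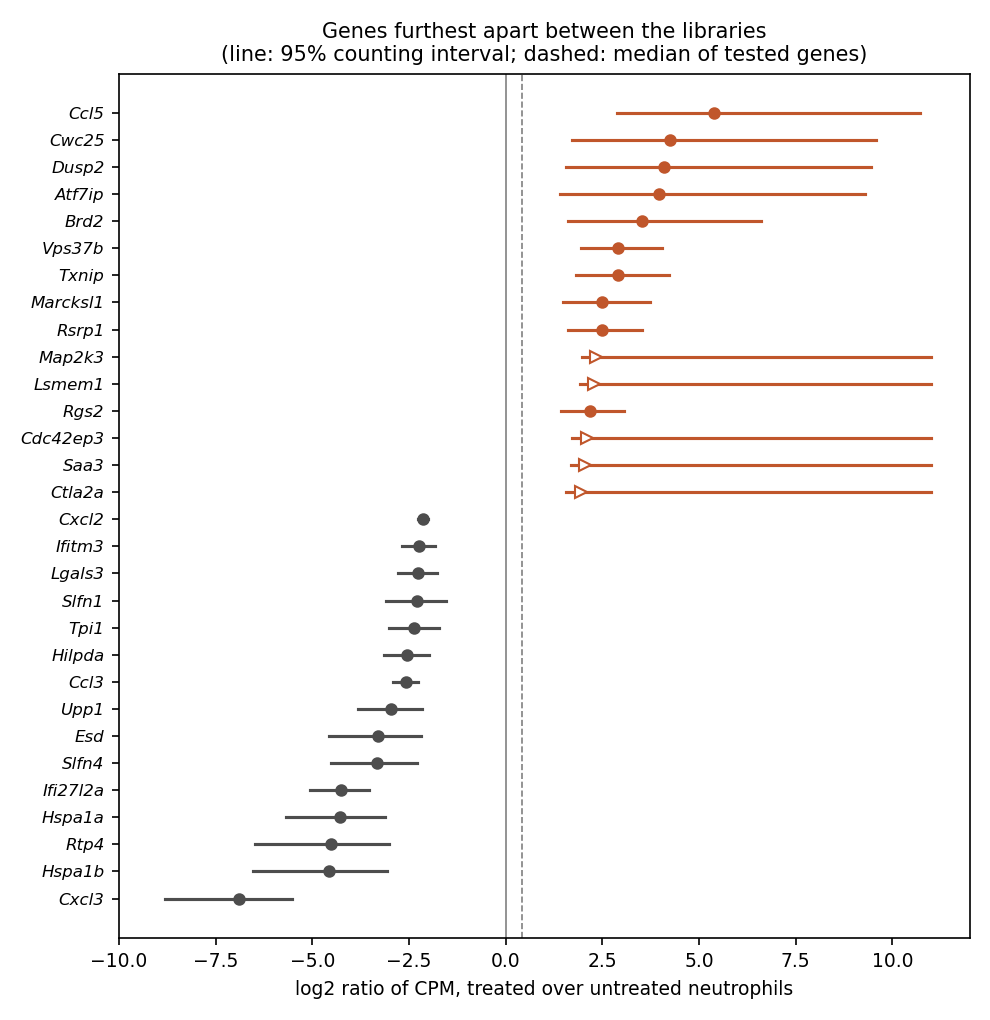
Log2 ratio of CPM in treated over untreated neutrophils for the 15 genes named as highest and the 15 named as lowest in treated neutrophils, with 95% counting intervals. Open triangles are lower bounds for genes with no untreated UMI, whose intervals have no upper end and are drawn to the edge. The dashed line is the median of tested genes, 0.43; Cxcl3 lies furthest left at -6.91.

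Neutrophil identity genes had no common direction. Of the 18 tested identity genes, 2 were higher, 3 lower and 13 within 2-fold, with a median log2 ratio of 0.14. Over all tested genes 27.9% were higher and 8.39% lower. Retnlg, a resistin-like protein of blood neutrophils, was present in 6 of 14 and 20 of 65 members at 2263 and 748 CPM, a log2 ratio of -1.60, with 49.0% of the untreated UMIs in 1 cell. Stfa2l1 was present in 6 and 18 members at 1626.5 and 573 CPM, and its log2 ratio of -1.51 turned to 2.36 in the stricter set of 8 and 50 cells. Both genes were held together by 1 untreated and 6 treated cells, and 3 untreated and 33 treated cells held neither. The lipid droplet gene G0s2, used by the rule, stood at 4738 and 1416 CPM and was present in 11 of 14 and 28 of 65 members. Its log2 ratio was -1.74, and -0.33 in the stricter set. Slpi (log2 ratio 0.06), Il1r2 (0.14) and Ifitm1 (0.15) were at like levels in the libraries, and Lcn2 had a ratio of 0.53 with an interval that included 1. The 5 tested NADPH oxidase genes, which make the respiratory burst, were all within 2-fold.

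Receptors and regulators of myeloid cells were divided, where 27.9% of all tested genes were higher and 8.39% lower. Of 5 tested pattern recognition genes 2 were at least 2-fold higher, Tlr2 and Nlrp3, and 1 was lower, Cd14, the co-receptor for lipopolysaccharide. Cd14 was present in 13 of 14 and 47 of 65 members at 4762 CPM (4128 to 5466) and 1829 CPM (1600 to 2082), a log2 ratio of -1.38. Of 9 tested Fc and paired receptor genes 8 were within 2-fold and Fcgr3 was lower (log2 ratio -1.08). Of 6 tested granulocyte transcription factors, Ets2 (1.21) and Bhlhe40 (1.57) were higher, while Cebpb (-0.59) and Spi1 (-0.78), which drive the myeloid programme, were within 2-fold.

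Survival genes were mostly within 2-fold, in 5 of 6 tested, with Mcl1, on which neutrophil survival depends, at 4290 and 2839 CPM, and Gadd45b higher at 896 and 2163 CPM. Over all tested genes 27.9% were higher and 8.39% lower. Of 6 tested genes of the interferon gamma and MHC class I list, 3 were higher, among them H2-K1 at 778 and 1837 CPM. Another of the 3, Psmb8, had 5 and 30 UMIs, and its ratio interval of 0.778 to 6.68 included 1. B2m, the partner chain of H2-K1, was at 2122 and 2068 CPM. The ribosomal protein genes had a median log2 ratio of 0.67, with 3 of 15 higher and none lower. This lies 0.24 above the median of all tested genes.

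Of 8 tested adhesion and migration genes 4 were at least 2-fold higher, against 27.9% of all tested genes, 4 were within 2-fold and none was lower. The median log2 ratio was 1.04, or 0.61 above the median of all tested genes. Icam1, an adhesion molecule bound by leukocyte integrins, had a log2 ratio of 1.52, Itgb2, the shared integrin beta chain, of 1.36 and Itgal of 1.15, and the ratio intervals of Itgb2 (1.01 to 8.35) and Itgal (0.864 to 7.31) reached to about 1 or below. All 4 higher genes reached the UMI minimum in treated neutrophils only, which favours their being counted as higher. When the genes were chosen by mean CPM in place of UMIs, the median of the list was 0.31.

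Cxcr4, the receptor that retains neutrophils in bone marrow and rises as they age, had a log2 ratio of 1.60. It stood at 330 and 1002 CPM and was present in 7 of 14 and 42 of 65 members. The difference was not particular to neutrophils. Other myeloid cells held 125.6 and 454.4 CPM of Cxcr4, a log2 ratio of 1.855, and T cells 85.3 and 144.9 CPM. Csf3r, the G-CSF receptor, stood at 966.5 and 1670 CPM and Cxcr2 at 377 and 565 CPM; both are genes of the rule. Ccr1, a receptor for Ccl3, had a log2 ratio of -1.30, and of -0.30 in the stricter set. Mmp9, the gelatinase of tertiary granules, stood at 330 and 795 CPM, a log2 ratio of 1.27.

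Among the genes named as highest in treated neutrophils was Txnip. Txnip, an inhibitor of thioredoxin and of glucose uptake, had 0 to 3 UMIs per untreated member (median 0) and 0 to 10 per treated member (median 2). It was 7.42-fold higher (3.52 to 18.8), from 165 to 1225 CPM, and after thinning was present in 14.3% of untreated members (1.78 to 42.8%) and 60.9% of treated members (47.9 to 72.9%). T cells stood at 187 and 118 CPM.

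Vps37b, a subunit of the ESCRT-I sorting complex, was also 7.42-fold higher (3.83 to 16.5) in treated neutrophils, at 212 and 1575 CPM, while T cells stood at 409 and 1626 CPM. Rsrp1 stood at 259 and 1455 CPM and the G protein regulator Rgs2 at 354 and 1606.5 CPM. The transcription factor Irf1, known as an interferon gamma target, stood at 118 CPM (38.3 to 275) and 740 CPM (597 to 906). Brd2, a reader of acetylated histones, had 2 and 68 UMIs, with a ratio of 11.5 and an interval of 3.06 to 96.6. Map2k3, a kinase upstream of p38, had no UMI in untreated members and 45 in treated members, at least 5.06-fold higher against a floor of 3 UMIs over the group, and its counting interval began at a ratio of 3.95.

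The immediate early list had 15 tested genes, of which 5 were at least 2-fold higher and 2 lower, with a median log2 ratio of 0.67. These counts are near the shares over all tested genes, 27.9% and 8.39%. Fos stood at 1485 and 3006 CPM and was present in 9 of 14 and 54 of 65 members, Fosb had a log2 ratio of 2.20, Atf3 of 1.69 and Nr4a3 of 2.55. Jun had a log2 ratio of -1.24 and Ier2 of -1.35, so members of the AP-1 family lay on both sides. Of 8 tested NF-kB targets, 4 were higher and none lower, against 27.9% and 8.39% of all tested genes, with Marcksl1 at 2.50, Tnfaip2 at 1.67 and Bcl3 at 1.56. The 4 higher NF-kB targets reached the UMI minimum in treated neutrophils only, which favours their being counted as higher. The same list had a median of 0.92, and of 0.18 when genes were chosen by mean CPM. The inflammasome sensor Nlrp3 had a log2 ratio of 1.60 and Tlr2, a receptor for bacterial lipoproteins, one of 1.40.

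Trametinib acts on the kinase above ERK. Of 18 genes listed as ERK output, 5 had enough UMIs in neutrophils, with a median log2 ratio of -0.47. Of the 5, 1 was at least 2-fold higher and none lower, against 27.9% and 8.39% of all tested genes. The higher gene was the phosphatase Dusp2, with 1 and 51 UMIs and an interval of the ratio from 2.95 to 693. Dusp6, a feedback phosphatase of ERK, had 5 untreated and 0 treated UMIs, and Spry2 had 0 and 3. Egr1 stood at 589 and 151 CPM, a log2 ratio of -1.96, on 25 and 19 UMIs. At this depth most ERK output genes could not be compared.

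A list of 15 genes picked earlier because they were high in treated T cells of these same libraries had 7 tested genes in neutrophils, of which 5 were at least 2-fold higher and none lower. Of all tested genes, 27.9% were higher and 8.39% lower. The median log2 ratio of the list was 1.39, against 0.43 over all tested genes. Each of the 5 higher genes reached the UMI minimum in treated neutrophils only. With genes chosen by mean CPM in place of UMIs, the median of the list was 0.77. Nr4a3 stood at 70.7 and 414 CPM in neutrophils and at 51.8 and 564 CPM in T cells. Hexim1 stood at 47.2 and 262 CPM against 30.9 and 188 CPM. Crem had 1 and 35 neutrophil UMIs, 40.0% of the treated ones in 1 cell. In the stricter set the log2 ratio of Hexim1 was 1.62 in place of 2.48, and that of Crem was 1.88 in place of 3.56. The ratio of Nr4a3 was 2.01 or more in every setting run. T cell markers summed to 165 and 310 CPM in these neutrophils, and their part in the difference was not tested.

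**Figure D5:**
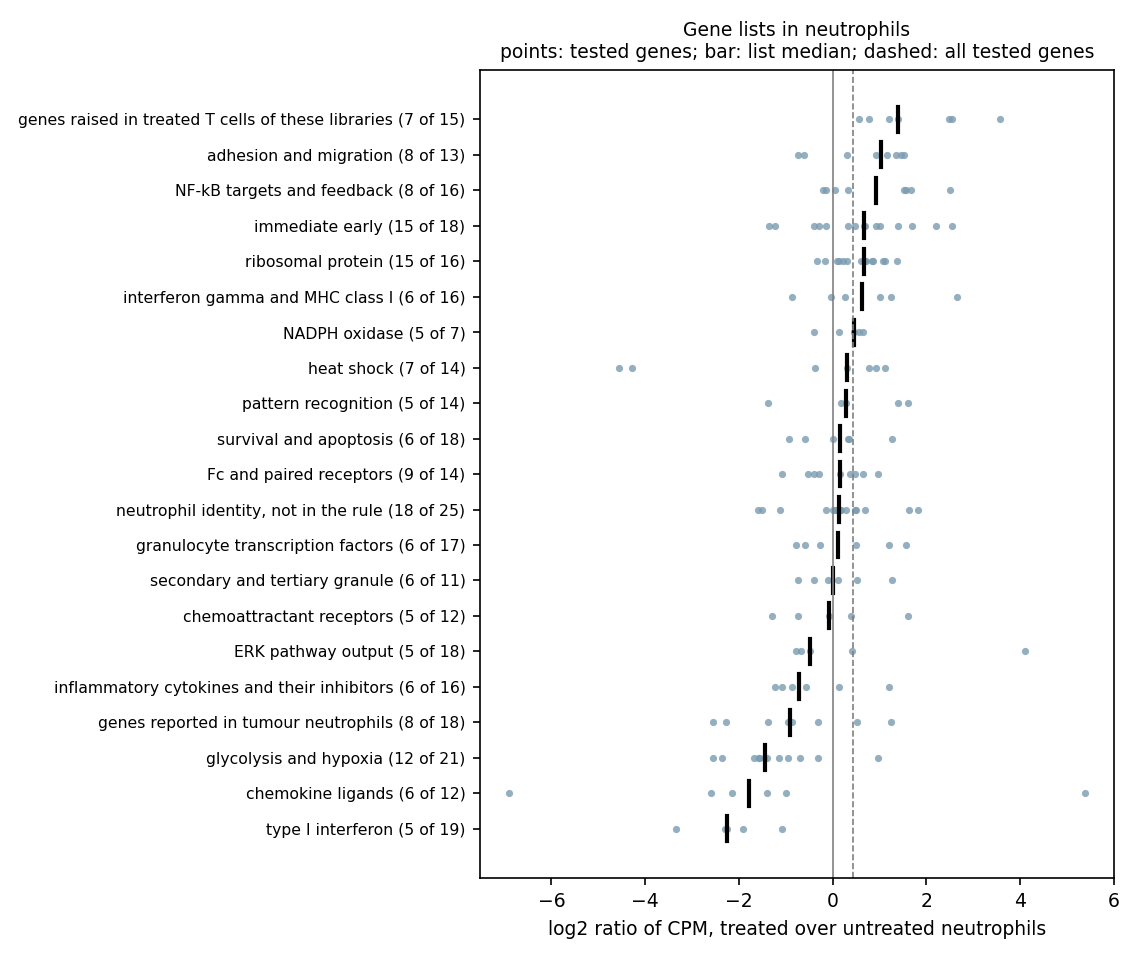
Log2 ratio of treated over untreated neutrophils for each tested gene (points) of the gene lists with at least 5 tested genes, with list medians (bars) and the median of all tested genes (dashed line, 0.43); the number of tested genes and of listed genes follows each name. Type I interferon (-2.25), chemokine ligand (-1.78) and glycolysis and hypoxia (-1.43) genes have the lowest medians.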

How the data were processed

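Droplet 3' libraries of 1 untreated and 1 treated group were analysed. Cell Ranger, Seurat and build GRCh38 are named in the submitters' processing notes, with no version given for the tools, and no coordinates were taken from the files because their symbols are mouse symbols. Values of 15121 genes in 17390 cells were deposited on a natural log scale, as ln(1 + UMIs per 10000 UMIs of the cell). UMIs were recovered from it, and 38204229 of 38204229 nonzero values were whole within 0.01. The cell-name suffixes were matched to the libraries by their cell numbers and the sample numbers in the labels.

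UMIs were summed over the members of each library and given as CPM of their total with exact Poisson intervals. Ratios have exact conditional binomial intervals and shares Clopper-Pearson intervals, at the 95% level. Genes at 0 over a whole library were taken as not measured. Genes with at least 30 UMIs in the members of 1 library count as tested, higher and lower mean at least 2-fold, and a sum of 0 was set to 3 UMIs for ratios. Shares of cells were also computed after thinning to 1000 UMIs per cell, which left out 1 treated member. No doublets were removed: the automatic Scrublet threshold marked 5 untreated and 4 treated cells of the whole libraries and was taken as not working, so removal of the highest 5% of scores was an alternative. The ratio step was tested on simulated data with 200 changed genes.

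The members and the 38 gene lists were chosen with earlier results of these data known. Named genes were the 15 highest and 15 lowest between the libraries by the interval bound nearest 1, the 15 highest and 10 lowest against other myeloid cells, the 2 highest and 2 lowest of each list and a set named always, leaving out ribosomal, mitochondrial, predicted, receptor segment and sex-linked genes from the ranking. Ccl6, Gapdh, Ldha, Pgk1, Pgam1, Eno1, Atf3, Bcl3, Itgb2, Itgal and the promoters shown were named after their values were seen. A gene picked by this rule is not reported here. Alternatives varied the rule, the mitochondrial limit, doublets, denominator, scaling and UMI minimum. The work used scanpy 1.11.5 with Scrublet, scipy 1.17.1, pandas 2.3.3 and numpy 2.4.6 under Python 3.11.15, and matplotlib 3.10.9 for plots.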

Additional observations from a re-analysis of the deposited data

How the results depend on the processing

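No paired analysis was possible because each group is 1 library. Of the 76 named genes at least 2-fold apart, 70 kept 1 direction in every setting run. The medians of the chemokine ligand (-2.35 to -1.70), type I interferon (-2.69 to -1.97) and glycolysis and hypoxia (-1.87 to -0.70) lists were negative in every setting. The share of treated neutrophils was 0.619% with at least 2 of the 3 further genes, and also 0.619% with more T cell and macrophage genes at 0. Scaled to a median ratio of 1, the genes higher and lower in treated neutrophils numbered 114 and 101. A minimum of 10 UMIs gave 549 and 138, and one of 100 UMIs gave 40 and 16. A mean CPM of at least 400, chosen after seeing the data, gave 56 higher. Against other myeloid cells, a minimum of 100 UMIs gave 149 higher and 348 lower. With more T cell and macrophage genes at 0, the log2 ratios of Ccl4 (1.83), Hcar2 (0.15), Stfa2l1 (2.36) and Ctla2a (-1.29) turned. Ctla2a also turned without the highest 5% of doublet scores (-0.98). H2-Aa turned as a mean of cell CPM (-0.083). Without the members over 4000 UMIs, a setting chosen after seeing the data, Ctla2a (-1.73), H2-Aa (-4.31) and H2-Ab1 (-1.73) turned and Lgals3 was -0.94 in place of -2.27. For Ctla2a, H2-Aa and H2-Ab1 the cells left out held most of the UMIs; for the others the cause was not tested. With 14 untreated cells, the floor of 3 UMIs equals 70.7 CPM.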

Other observations

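Genes of early granulocytes were nearly absent. The primary granule genes Mpo and Elane had 7 and 9 UMIs, all in 1 treated cell, and no UMI in untreated members. Camp had 7 UMIs, all in the treated cell that held Elane. That cell was the shallowest member, at 818 UMIs, and held Csf3r but no Cxcl2, Il1b, Cxcr2 or G0s2 UMI. Ngp had 9 UMIs in 3 treated cells, and Ltf 1 untreated and 2 treated UMIs. Arg1, often used for suppressive myeloid cells, had no UMI in neutrophils of either library, while other myeloid cells stood at 241 and 563 CPM. Arg2, the mitochondrial arginase, was present in 8 of 14 and 43 of 65 members at 330 and 787 CPM. Nos2 had 3 untreated and 0 treated UMIs, and Siglecf, reported on some tumour neutrophils, had 0 and 4.

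MHC class II transcripts in treated neutrophils were concentrated: the cell highest for each gene held 97.9% of the H2-Aa, 94.4% of the H2-Ab1, 85.2% of the H2-Eb1 and 85.0% of the Cd74 UMIs, and H2-Eb1 and Cd74 were found in 4 and 15 of 65 members. The heat shock genes Hspa1a and Hspa1b were seen in 2 untreated members, with 95.7% and 75.0% of the untreated UMIs in 1 cell. Lgals3 had 64.8% of its untreated UMIs in 1 cell. Saa3, an acute phase gene, was seen in 5 treated members, with 62.2% of its UMIs in 1 of them.

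Hdc held 66 of 66 untreated and 317 of 319 treated UMIs of the mast cell and basophil list, and the defining genes Mcpt8 and Cpa3 were at 0 in neutrophils of both libraries.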
